A study of Ciona robusta with 9 samples.

Results

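The response of whole embryos to Brachyury placed under the neural Etr1 enhancer was described gene by gene. The tested genes were all models whose mean over the 3 control and 3 Etr1>Bra libraries was at least 10 normalized read counts. This rule kept 11514 of 15284 gene models. Of the others, 721 had 0 reads in all 6 libraries and 3049 had reads but a mean under 10. Just outside the rule lay a model with a mean of 9.997 and just inside it one with 10.01.

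The animal was Ciona robusta, an ascidian or sea squirt. Its tadpole has a chordate body plan, with tail muscle and a nerve cord arranged around a notochord. Plasmids were electroporated into dechorionated fertilized eggs, the embryos developed in artificial seawater at 21 °C, and RNA was taken from 400 whole embryos per sample at Hotta stage 19.5. The control group carried Bra>GFP, in which regulatory DNA of Bra drives GFP, and the Etr1>Bra group carried Etr1>Venus-Bra, in which Etr1 regulatory DNA drives a Venus-tagged Bra. No other allele or agent is labelled, and both groups underwent electroporation. The groups differ in the regulatory DNA as well as in the expressed protein, and no library here carried Etr1 regulatory DNA without Bra. Electroporated plasmids are in general inherited mosaically, and the share of cells that carried a plasmid is not given in the sources used here.

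Brachyury is a T-box transcription factor. In Ciona it is switched on in the notochord lineage and acts directly and through intermediate factors on the genes of notochord differentiation. Etr1 encodes an RNA-binding protein of the nervous system, and its regulatory DNA is used to reach neural cells. The comparison thus asks which transcripts change in the embryo when Bra is supplied outside the notochord. The tables identify genes by KH model only, and none of the 15284 IDs matched the gene table supplied for the species. The levels of Bra and Etr1, lists of notochord, neural or other genes, and the markers of the tissues in a whole embryo are therefore not analysed here. The tables pair no ID with a name, so 2 models that rose and 2 that fell are printed as IDs, without a role.

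The 6 libraries held 9533464 to 10399304 gene-assigned reads, and 13632 to 13822 models had at least 1 read in a library. Libraries were paired by the replicate number in their titles. The log2 change of a gene is the mean over the 3 pairs of the log2 ratio of (normalized count + 1), a scale that understates the change of low genes. A gene was called when limma, with the replicate number as a block, gave an adjusted p under 0.05 (two-sided, Benjamini-Hochberg over all 11514 genes). The submitters describe the replicates as biological without saying whether each came from its own fertilization, so a p-value here reflects only how far these samples spread, which may be technical.

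At this threshold far more genes rose than fell. With Etr1>Bra, 402 genes were higher, which is 3.49% of the genes tested, and 45 were lower, which is 0.391%. Together they were 3.88% of the genes tested. At an unadjusted p under 0.05 in the same limma fit, 1125 of the 11514 genes were higher and 533 lower, so the imbalance was smaller there. The 402 risen genes were divided by their control level. Those with a control mean under 10 normalized counts, 73 genes, are called gained here, and the 329 that already stood at 10 or more are called raised. Gained genes were thus 18.2% of the risen genes and raised genes 81.8%. The median log2 change was 3.04 for gained genes, 1.06 for raised genes and −0.85 for lower genes, beside −0.02 over all genes tested. These classes were chosen by their change, and gained genes also passed the filter only through their level with Etr1>Bra. The order of the medians thus follows in part from the choice. Over all 209 tested genes with a control mean under 10, called or not, the median was 1.30. In whole embryos, more cells of a type and more RNA per cell cannot be told apart.

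These counts rest on the pairing. Without the block, limma called 15 genes higher, 0.13% of those tested, and 1 lower, 0.00869%, or 0.139% in all. All 15 were among the 402, and 7 of them were gained genes. The median residual standard deviation of a gene on the log2 scale was 0.152 with the block and 0.242 without it. The blocked counts also varied with the pairs used. Without replicate 1, 907 genes were called higher and 326 lower, without replicate 2, 8 and 0, and without replicate 3, 300 and 32. At an unadjusted p under 0.05 the numbers were 1280 and 781 without replicate 1, 887 and 394 without replicate 2, and 686 and 223 without replicate 3. The prior degrees of freedom, weighed against the residual ones, set how far limma shares the spread between genes. They were 9.26 with all pairs, 107 without replicate 1 and 5.34 without replicate 2. Without replicate 3 the spread was shared in full. Leaving out a pair also lowers the residual degrees of freedom. Fewer genes had an unadjusted p under 0.05 without replicate 3 than without replicate 2. The reason for the small count without replicate 2 was not tested.

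**Figure D1:**
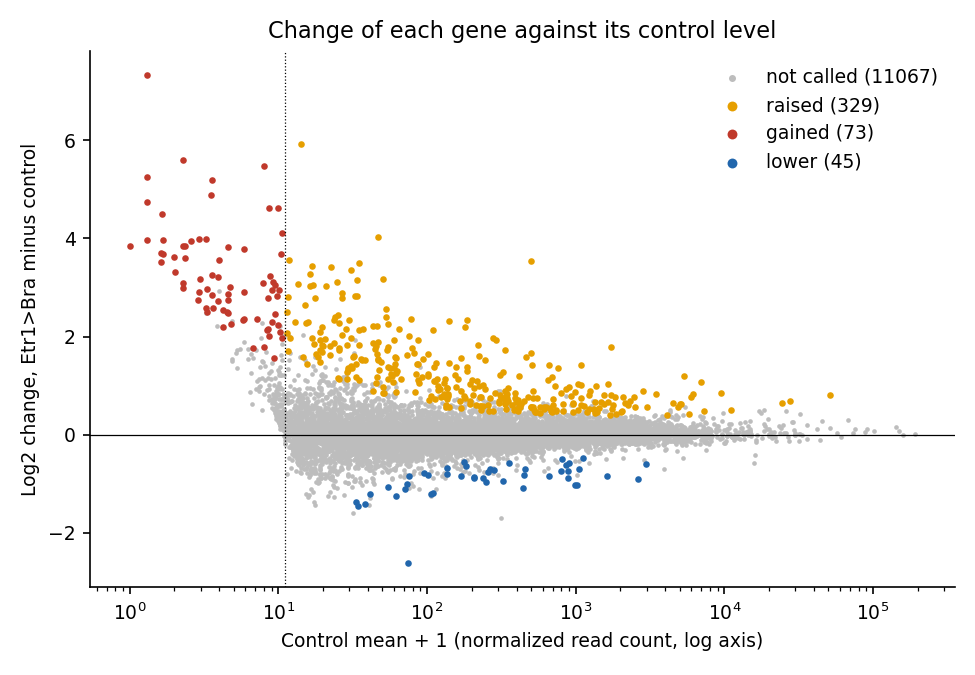
Each point is 1 of the 11514 tested genes, with its control mean plus 1 on a log axis (normalized read counts) and its log2 change with Etr1>Bra. Colours mark the 73 gained, 329 raised and 45 lower genes, and the dotted line the control mean of 10 that divides gained from raised genes. The empty area at lower left follows from the filter, since a gene low in control passes only when it is high with Etr1>Bra.

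Risen genes occurred at every control level. Among 3742 tested genes with a control mean of 10 to 100, 129 rose (3.45%) and 12 fell (0.321%). Among 5741 genes between 100 and 1000, 143 rose (2.49%) and 27 fell (0.47%). Among 1822 genes at 1000 or more, 57 rose (3.13%) and 6 fell (0.329%). The share of risen genes thus stayed between 2.49% and 3.45% over these levels, whereas the median size of the rise among called genes did not. The median log2 change of risen genes was 1.76 at 10 to 100, 0.78 at 100 to 1000 and 0.64 at 1000 or more. The typical standard error was larger for low genes, with medians of 0.24, 0.12 and 0.10 at these levels. A low gene thus needed a larger change to be called, so neither these shares nor these medians measure how the response depends on level. Below a control mean of 10, 209 genes were tested, and 73 of them rose (34.9%). These genes passed the filter only through their level with Etr1>Bra, so that share is no measure of how often silent genes respond.

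**Figure D2:**
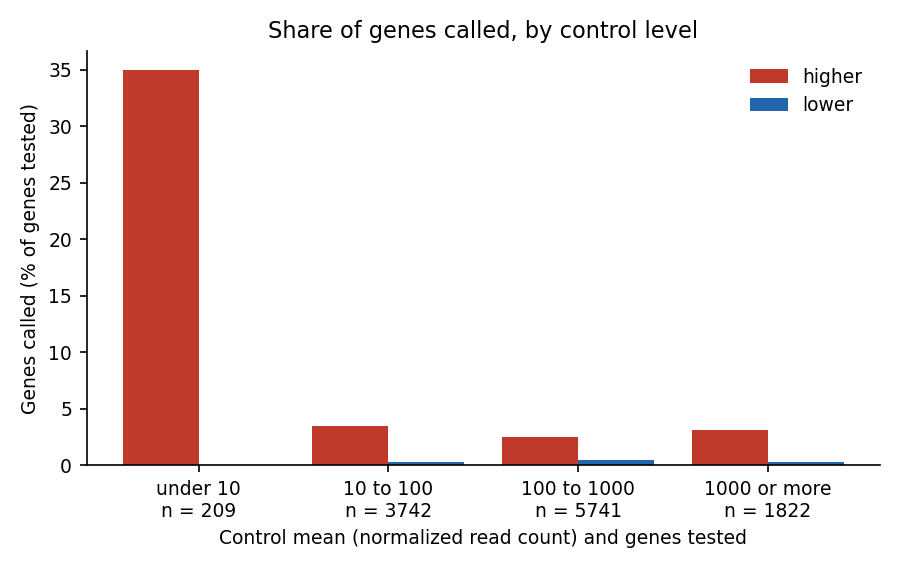
Bars give the genes called higher or lower with Etr1>Bra as a percentage of the genes tested, in 4 classes of control mean (normalized read counts). From a control mean of 10 upward, between 2.49% and 3.45% of genes were called higher and under 0.5% lower. The first class is high because of the filter, and the size of change needed for a call differed between classes.

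Gained genes went from near silence to low or moderate levels. Their control means ran from 0 to 9.53 normalized counts, with a median of 3.27, and their Etr1>Bra means from 18.8 to 405, with a median of 37.6. The median of all tested genes was 198, and 5 of the 73 exceeded it with Etr1>Bra. One gene had 0 reads in all 3 controls, and 12 of the 73 had at most 3 control reads in all. In 53 of the 73, every Etr1>Bra library reached 10 normalized counts. Of the 73, 69 rose at least 4-fold and 38 at least 8-fold on the scale with the added count of 1. The groups did not overlap in 72 of them, where 6.9% of all tested genes were higher without overlap. The 73 were called on these same libraries, so this separation follows largely from the choice.

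KH.C4.361 was the gained gene with the largest log2 change. It stood at 0, 0.95 and 0 normalized counts in control replicates 1, 2 and 3, a single read in all, and at 59.2, 227 and 587 in the matching Etr1>Bra libraries. Every Etr1>Bra library was far above every control, and the Etr1>Bra libraries differed widely among themselves. In pair 1 the level was at least 19.1-fold higher and in pair 3 at least 206-fold higher, taking a floor of 3 reads for the control library at 0. In pair 2 the ratio was 239, with an exact 95% binomial interval from 42.5 to 9495 that covers counting error only. The fitted log2 change was 7.33 ± 0.54 (SE, n = 3 pairs), called by limma with an adjusted p of 3.37e-05. Over the alternatives, leave-outs included, the adjusted p ran from 1.63e-35 to 0.0667. The low end came from the limma fit without replicate 1, at 107 prior degrees of freedom. The call was lost only without replicate 2, where the log2 change was 7.56.

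Raised genes were spread over the whole range of expression. Their control means ran from 10.4 to 51562 normalized counts with a median of 166, and 200 of the 329 stood at 100 or more. Of the 329, 174 rose at least 2-fold, 51 at least 4-fold and 16 at least 8-fold, while 51 rose by less than 1.5-fold. The groups did not overlap in 284 of the 329, beside 6.9% of all tested genes that were higher without overlap. Here, too, the call on the same libraries favours separation. As a share of all gene-assigned reads, the raised genes took 2.97%, 3.33% and 3.38% in control replicates 1, 2 and 3, and 4.22%, 5.10% and 7.08% in the matching Etr1>Bra libraries. The gained genes took 0.0031%, 0.0031% and 0.0034% in the controls and 0.0152%, 0.0428% and 0.0822% with Etr1>Bra. In every library the raised genes held far more of the reads than the gained genes, which are fewer and by definition low in control.

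KH.C9.549 had the largest log2 change among raised genes with a control mean of at least 100. It stood at 498, 580 and 415 normalized counts in control replicates 1, 2 and 3, and at 3091, 5239 and 11627 with Etr1>Bra. The lowest Etr1>Bra library was above the highest control, and replicate 3 was the lowest control and the highest Etr1>Bra library. The read ratio was 6.21 in pair 1 (interval 5.64 to 6.85), 9.04 in pair 2 (8.31 to 9.84) and 28.0 in pair 3 (25.5 to 30.9), where the intervals cover counting error only and not the spread between samples of embryos. The fitted log2 change was 3.54 ± 0.29 (limma adjusted p = 7.45e-05, range over the alternatives 4.29e-73 to 0.0998). The low end came from the fit without replicate 3, where the spread was shared in full between genes. This gene, too, was not called without replicate 2 alone, where its log2 change was 3.72. With Etr1>Bra it ranked 17 by mean level among the 402 risen genes.

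**Figure D3:**
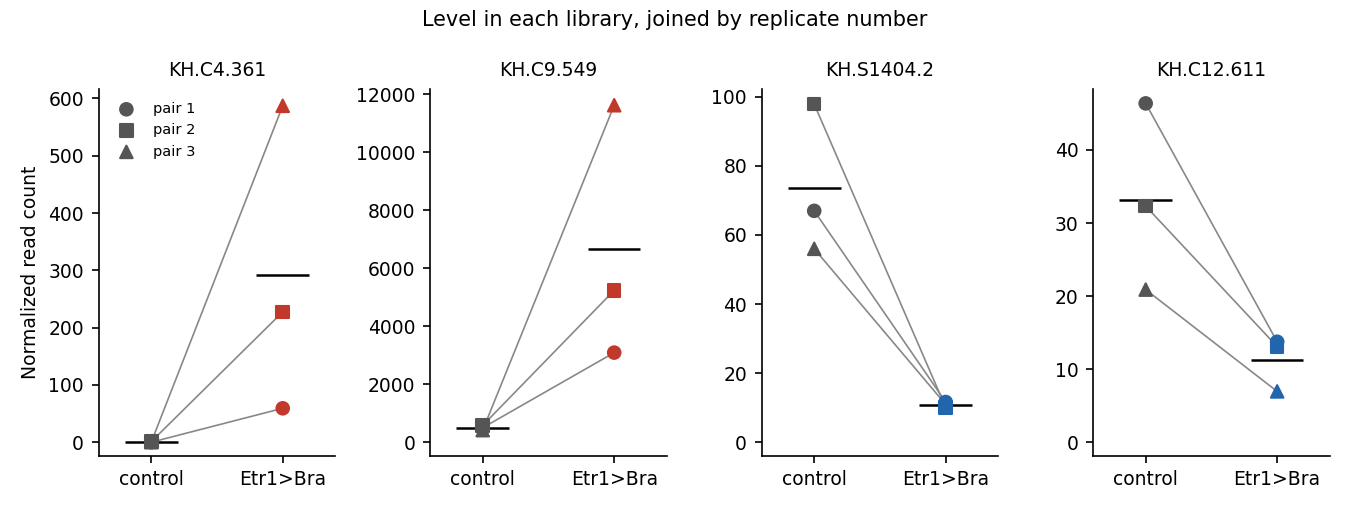
Points give the normalized read count of the 4 named genes in each library on linear axes that differ between panels, lines join libraries of the same replicate number, and bars mark the group means. KH.C4.361 and KH.C9.549 were higher in all 3 Etr1>Bra libraries, up to 587 and 11627 counts, and KH.S1404.2 and KH.C12.611 were lower in all 3.

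Losses were few and mostly partial. The 45 lower genes had control means from 32.4 to 2982, with a median of 249, and Etr1>Bra means from 10.9 to 2029, with a median of 153. None was without reads in all Etr1>Bra libraries. Of the 45, 13 fell at least 2-fold, 1 fell at least 4-fold and 5 fell by less than 1.5-fold. The groups did not overlap in 25 of the 45, where 3.78% of all tested genes were lower without overlap. The call on the same libraries favours separation here as well. Together they took 0.248%, 0.237% and 0.222% of the reads in control replicates 1, 2 and 3, and 0.172%, 0.15% and 0.0893% with Etr1>Bra.

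KH.S1404.2 was the only called gene that fell at least 4-fold. It stood at 67.0, 97.9 and 56.0 normalized counts in control replicates 1, 2 and 3, and at 11.6, 10.1 and 10.9 with Etr1>Bra. Every control was far above every Etr1>Bra library, and the Etr1>Bra libraries lay close together. The read ratio was 0.174 in pair 1 (interval 0.0826 to 0.331), 0.103 in pair 2 (0.0479 to 0.197) and 0.195 in pair 3 (0.0923 to 0.375), and these intervals overlapped. The log2 change was −2.62 ± 0.28 (limma adjusted p = 0.000545, range over the alternatives 1.05e-13 to 0.13). The low end again came from the fit without replicate 3. The call was lost only without replicate 2, where the log2 change was −2.34.

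KH.C12.611 had the next largest fall among lower genes without overlap. Its levels were 46.4, 32.3 and 20.9 in control and 13.7, 13.1 and 6.94 with Etr1>Bra. The lowest control was above the highest Etr1>Bra library, the controls themselves were spread widely, and each pair showed a fall. The log2 change was −1.46 ± 0.31 (limma adjusted p = 0.0233, range over the alternatives 0.00828 to 0.346). This call is the least certain of the 4. It was lost without the block (0.346), in DESeq2 (0.218), with the regularized log2 values (0.0621) and without replicate 2 (0.306).

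The size of the change differed between the pairs. In pairs 1, 2 and 3 the median log2 change of the gained genes was 2.04, 3.35 and 4.13. Over the raised genes it was 0.64, 0.87 and 1.58, and over the lower genes −0.43, −0.76 and −1.34. Pair 3 held the largest change for 58 of 73 gained genes, 305 of 329 raised genes and 38 of 45 lower genes. Pair 1 held the smallest for 57, 228 and 36 of them. These genes were called on the same pairs, and the call favours agreement between pairs without requiring it. That all 447 moved one way in every pair thus follows largely from the choice, and the medians are a description.

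**Figure D4:**
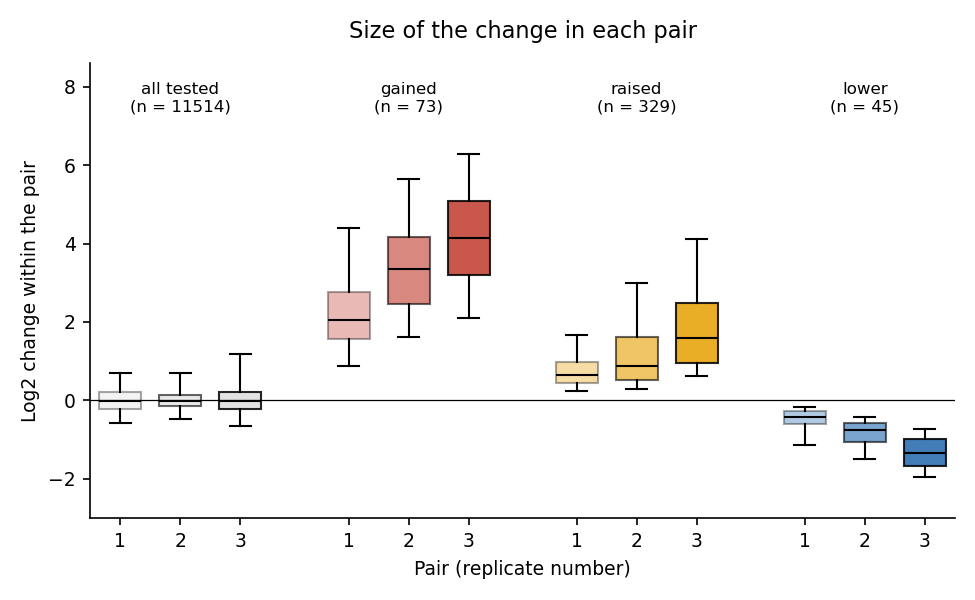
Boxes give the quartiles and median, and whiskers the 5th to 95th percentile, of the log2 change within each pair, for all 11514 tested genes and for the gained, raised and lower genes. The medians of the called genes lie farthest from 0 in pair 3 and nearest to 0 in pair 1, while the medians of all genes lie between −0.02 and −0.01.

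Pair 3 also stood apart over all genes tested. In pairs 1, 2 and 3, 312 (2.71%), 361 (3.14%) and 710 genes (6.17%) were at least 2-fold higher. At least 2-fold lower were 135 (1.17%), 93 (0.808%) and 233 genes (2.02%). The standard deviation of the log2 change over all genes was 0.465, 0.504 and 0.706. The Etr1>Bra libraries of pairs 1, 2 and 3 held 10399304, 9610478 and 9913750 reads and the controls 9533464, 10222725 and 9804657. The part of depth in the size of the change was not tested.

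Since the pairs share no library, genes chosen in 1 pair can be read in another that did not choose them. The 312 genes at least 2-fold higher in pair 1 had a median log2 change of 0.75 in pair 2 and 1.61 in pair 3. The 361 chosen in pair 2 had a median of 0.75 in pair 1 and 2.40 in pair 3. The 710 chosen in pair 3 had a median of 0.46 in pair 1 and 0.82 in pair 2. Whichever pair chose the genes, the medians in the remaining pairs kept the same order, with pair 3 above pair 2 and pair 2 above pair 1. The 135 genes at least 2-fold lower in pair 1 had medians of −0.04 in pair 2 and −0.18 in pair 3. For the 93 chosen in pair 2 the medians were −0.25 and −0.48 in pairs 1 and 3, and for the 233 chosen in pair 3 they were −0.21 and −0.50 in pairs 1 and 2.

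**Figure D5:**
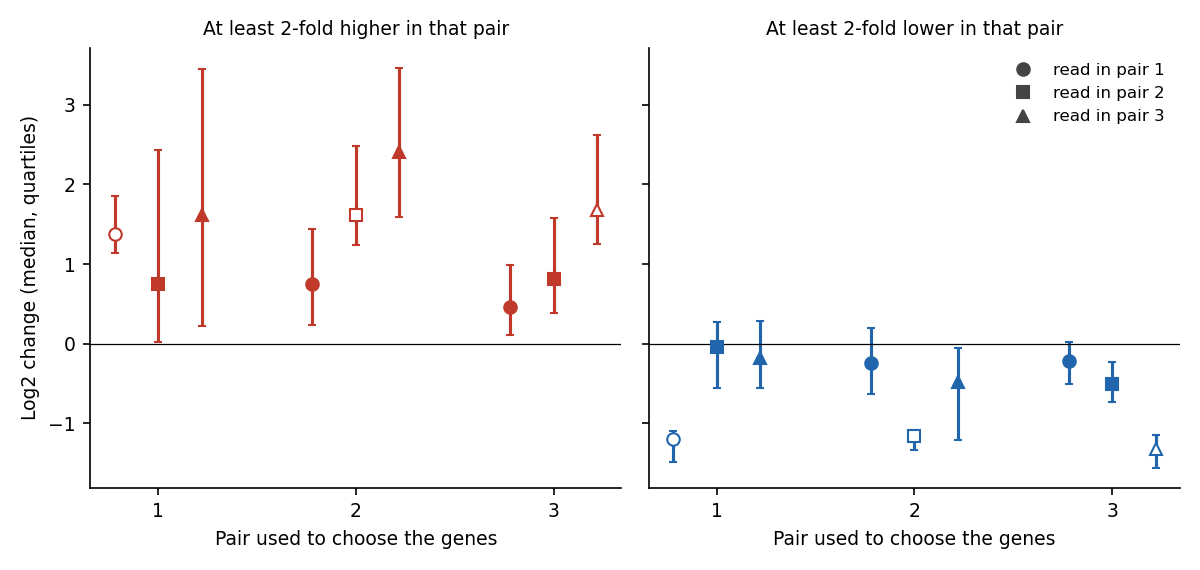
Points give the median and bars the quartiles of the log2 change in each pair, for genes at least 2-fold higher (left) or lower (right) in the pair on the horizontal axis. Open symbols are values in the choosing pair itself, which lie beyond 1 or −1 by construction, and filled symbols are values in pairs that did not choose the genes, which for higher genes have medians from 0.46 to 2.40 and for lower genes from −0.50 to −0.04.

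Genes that were at least 2-fold higher in 2 pairs were mostly higher in the remaining one. For pair 3, 147 genes were chosen in pairs 1 and 2. In pair 3 their median log2 change was 3.65, and 144 of them (98.0%) were at least 2-fold higher, against 6.17% of all tested genes. For pair 2, 176 genes were chosen, with a median of 2.17 and 144 (81.8%) at least 2-fold higher, against 3.14%. For pair 1, 309 genes were chosen, with a median of 0.94 and 144 (46.6%) at least 2-fold higher, against 2.71%. Higher by any amount were 280 of the 309 (90.6%) in pair 1, against 49% of all genes, 163 of the 176 (92.6%) in pair 2, against 47.3%, and 146 of the 147 (99.3%) in pair 3, against 47.2%. The 144 in each count are the same genes, those at least 2-fold higher in all 3 pairs. Of these, 72 had a control mean under 10, and 139 were among the 402 called. The filter on all 6 libraries includes the pair left out. A filter on the 4 libraries of the choosing pairs, added after seeing the data, left 126, 175 and 320 chosen genes for pairs 3, 2 and 1. At least 2-fold higher were 98.4%, 81.1% and 47.2% of them, against 5.86%, 3.19% and 2.84% of all genes passing that filter.

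The same was read separately for expressed and for near-silent genes. Among chosen genes with a mean of at least 100 in the controls of the choosing pairs, 37 were read in pair 1, 17 in pair 2 and 14 in pair 3, and all of them were higher there. Their median log2 changes were 0.87, 1.65 and 2.59. Of all tested genes, 49%, 47.3% and 47.2% were higher in pairs 1, 2 and 3. Among chosen genes with a control mean under 10, 62.5% of 112, 75.6% of 90 and 96.1% of 77 were at least 2-fold higher in pairs 1, 2 and 3. Over all tested genes of any level these shares were 2.71%, 3.14% and 6.17%. That is no like comparison, since the 209 tested genes with a control mean under 10 had a median log2 change of 1.30, called or not. The filter on the mean of all 6 libraries favours a high level in the remaining pair for such genes. With the filter set on the 4 libraries of the choosing pairs, chosen after seeing the data, these shares were 62.6% of 123, 74.2% of 89 and 96.4% of 56.

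Few losses recurred. Only 27, 15 and 13 genes were at least 2-fold lower in both other pairs when pairs 1, 2 and 3 were left out. In the pair left out, 4 genes of each set were again at least 2-fold lower. These were 14.8% of 27 against 1.17% of all genes, 26.7% of 15 against 0.808%, and 30.8% of 13 against 2.02%. The medians were −0.32, −0.36 and −0.35. Lower by any amount were 21 of the 27 (77.8%) in pair 1, against 50.9% of all genes. In pair 2 they were 9 of the 15 (60%), against 52.6%, and in pair 3 they were 9 of the 13 (69.2%), against 52.8%. Of 895 genes at least 2-fold higher in some pair, 144 (16.1%) were so in all 3, and of 410 at least 2-fold lower in some pair, 4 (0.976%) were. Of these 4 genes, 2 were among the 45 called.

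The alikeness of the pairs differed too. Across all 11514 genes, which are not independent replicates, the log2 changes correlated (Pearson) at 0.72 between pairs 2 and 3, 0.48 between pairs 1 and 3 and 0.40 between pairs 1 and 2. The rank correlations were lower, at 0.38, 0.31 and 0.08. Over the 7595 genes with a mean of at least 100 the Pearson values were 0.81, 0.52 and 0.42. Pairs share no library but share the scaling of the whole table.

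The levels of the 4 named genes with Bra under Tbx6-r.b regulatory DNA, which is used to reach tail muscle, stand in a table scaled separately with the same 3 controls. There KH.C9.549 was at 493, 573 and 411 in control replicates 1, 2 and 3 and at 1075, 1704 and 1074 with Tbx6-r.b>Bra. KH.C12.611 was at 45.9, 32.0 and 20.7 in control and 37.0, 20.6 and 22.4 with Tbx6-r.b>Bra, where the groups overlapped. KH.C4.361 was at 23.2, 66.3 and 65.4 with Tbx6-r.b>Bra, and KH.S1404.2 at 6.34, 6.52 and 11.2. The difference between the constructs was not tested here.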

How the data were processed

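RNA from whole embryos was sequenced after a stranded mRNA library preparation, per the labels' protocols. The submitters' processing notes name TopHat2 2.9.8b and DESeq 1.8.1. For the counting program, its use of strand and the genome build, nothing is given in the sources used here. Reads of gene copies, of overlapping genes and of antisense partners may thus be mixed. The authors deposited 2 kinds of value, per the file headers: a non-negative signal, the read count scaled to library size, and a regularized log2 value. All values of each column were whole multiples of the smallest (100% of values, tolerance 0.01), so whole reads were recovered for the count tests.

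The main test was limma 3.58.1 in R 4.3.3, with the replicate number as a block and a trend of the prior variance with mean level, on log2(normalized count + 1). It had 2 residual degrees of freedom per gene, moderated by 9.26 prior degrees of freedom. The pairing was checked by the deviations from group means over 11514 genes. These correlated at 0.58, 0.68 and 0.58 between libraries of the same number and at −0.25 or less between different numbers, where negative values follow from the positive ones. On the count of reads edgeR 4.0.16 and DESeq2 1.42.0, both with the block, were alternatives, beside other scaling, pseudocounts, filters and leaving out each pair. The procedures were tested on simulated reads. Intervals are exact (Clopper-Pearson) at 95%, and floors are 3 reads.

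Members, classes and tests were chosen with earlier results of these data known. The named models are the gained gene, the raised gene with a control mean of at least 100 and the 2 lower genes with the largest changes, called and without overlap between groups. The other 3 libraries of the series, with Tbx6-r.b>Bra, entered no fit.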

Additional observations from a re-analysis of the deposited data

How the results depend on the processing

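The numbers of higher, lower, gained and raised genes were 402, 45, 73 and 329. Without the replicate block they were 15, 1, 7 and 8, and edgeR on the reads without the block gave 12 higher and 1 lower. With the block edgeR called 429 higher and 46 lower, of which 394 and 42 were among the main calls. DESeq2 called 344 higher and 21 lower, of which 321 and 16 were. With the regularized log2 values the numbers were 190, 11, 21 and 169. With no filter on low values 250 were higher, 4 lower and 177 raised. With a minimum mean of 50, which leaves fewer genes to test, 26 were lower and 13 gained. With gained genes bounded at a control mean of 5 they were 48. Leaving out 1 pair in turn gave 8 to 907 higher, 0 to 326 lower, 2 to 128 gained and 6 to 779 raised genes, with replicate 2 the lowest and replicate 1 the highest. Without replicate 3, limma gave each gene the spread of the trend at its mean level. TMM scaling and the other pseudocounts moved none of these counts by over 1.5 times.

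The 4 named genes kept their direction in every setting that tested them, and 7 of 46 repeated calls were lost.

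The held-out medians of higher genes moved by less than their spread between pairs in every alternative. Those of lower genes moved. With at least 4-fold falls in both other pairs, which left 1 gene each, they were −2.43, −3.16 and −2.26 in pairs 1, 2 and 3. With a pseudocount of 5 they were −0.17, −0.54 and −1.12. With a minimum mean of 50 the median in pair 1 was −0.14, and no gene was left for pairs 2 and 3. With the filter on the choosing pairs, added after seeing the data, the median in pair 3 was −0.26. The cause of the other differences was not tested. Depth limits the low genes: at a single control read, a fold change has only a wide counting interval.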

Other observations

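Among the 3049 models with reads but a mean under 10, which were not tested, 27 had 0 control reads and at least 1 read in each Etr1>Bra library, with at most 44 reads over those libraries. The reverse, 0 reads with Etr1>Bra and at least 1 in each control, held for 8 models, with at most 7 reads. The groups did not overlap and were higher with Etr1>Bra for 202 of these models (6.63%), beside 6.9% of the tested genes, and lower for 74 (2.43%), beside 3.78%.

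The KH ID of a model names its chromosome, or an unplaced sequence. Of the 402 risen genes 293 (72.9%) bore a numbered chromosome, as did 70.2% of the tested genes. By chromosome, the share of tested genes that rose ran from 1.99% of 151 on chromosome 13 to 5.44% of 607 on chromosome 7, and each of the 14 chromosomes held at least 3 risen and 1 lower gene. These shares are descriptions, and no difference between chromosomes was tested.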
